A study of Mus musculus with 6 samples.

Results

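Motile cilia axoneme genes were followed in RNA sequenced from microglia, which are macrophages that live in the brain, taken from C57BL/6J mice aged 8 weeks. The members are the 48 rows, of 24411 in the deposited count table, whose symbol is Cfap, Dnah, Dnaic, Drc, Rsph or Tekt followed by a digit, plus Foxj1, Dlec1, Ccdc39 and Ccdc40. The rule uses names alone, but it was set with earlier results of these data known. Libraries came from mice with a germline knockout of Mir137 (gKO, n = 3) and from wild-type mice of the same strain and age (gWT, n = 3). The comparison asks how transcription changes without this microRNA. The submitters' design text gives 4 adult mice and 3 replicates per genotype without saying which animals made which library, so p-values here reflect only how much libraries of a genotype vary, and that variation may be technical.

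A motile cilium is a membrane-covered rod of microtubules, the axoneme, that beats to move fluid. Outer and inner dynein arms slide the doublet microtubules against each other, the nexin-dynein regulatory complex links the doublets, and radial spokes pass signals from the central microtubules to the arms. The forkhead factor FOXJ1 and factors of the RFX family switch on most of these genes. In the brain, motile cilia are known from ependymal cells that line the ventricles and from the epithelium of the choroid plexus. Microglia are not known to carry them, so the members divide into genes of motile cilia proper and a few relatives that many cell types express.

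The deleted microRNA acts through bases 2 to 8 of its mature strand, the seed, shown here in capitals because its complement, AGCAATA, is the site looked for in target transcripts (RefSeq, GRCm38.p6, chr3:118433901-118433923, plus strand).
mmu-miR-137-3p: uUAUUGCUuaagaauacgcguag
Of the 48 members, 1 (Cfap69) held this site in its 3′ UTR, or 2.08%, against 1751 of 19685 rows with an annotated 3′ UTR, or 8.90%. The members' 3′ UTRs were shorter, with a median of 221 bases against 826. Cfap69, known from the cilia of olfactory neurons, had 35, 26 and 15 counts in gKO replicates 1, 2 and 3 against 29, 17 and 38 in the gWT replicates, so its groups overlapped.

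Promoter windows of 300 bases, 250 before and 50 after the start, were given for 43 of the 48 members. The X-box is the motif that RFX factors bind, and one arm of it reads GTTGCC, which on the other strand is GGCAAC. At least 1 match was found in 15 of the 43 members, or 34.9%, and in 2406 of 17224 genes of the table with a window, or 14.0%. Its inner core GTTGC, searched on both strands and lying within the longer arm, was found in 33 members, or 76.7%, against 38.3% of all genes. A forkhead motif, TGTTTAC, searched on both strands, was found in 4 members, or 9.30%, against 3.51%. A match is a description of letters and shows no binding. The windows below were picked from genes that had at most 1 count in all gKO libraries together and that hold the arm, to show where it lies. The core and its complement on the other strand are in capitals, sequences run 5′ to 3′ on the plus strand, and coordinates are from RefSeq on GRCm38.p6.
Drc1, 250 bases before its start (chr5:30281143-30281392): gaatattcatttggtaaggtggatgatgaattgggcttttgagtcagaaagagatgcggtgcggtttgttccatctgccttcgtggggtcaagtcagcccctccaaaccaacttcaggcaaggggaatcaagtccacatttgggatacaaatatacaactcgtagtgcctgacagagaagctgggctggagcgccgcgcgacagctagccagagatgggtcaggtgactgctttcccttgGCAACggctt
Dnaic2, 250 bases before its start (chr11:114727169-114727418): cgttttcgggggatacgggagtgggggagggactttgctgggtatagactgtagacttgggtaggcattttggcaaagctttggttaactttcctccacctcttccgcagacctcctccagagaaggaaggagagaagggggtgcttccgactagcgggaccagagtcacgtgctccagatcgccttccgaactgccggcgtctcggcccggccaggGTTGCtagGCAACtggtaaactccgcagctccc
Dlec1, 30 bases around its match (chr9:119102497-119102526): tgcagcgtctctGTTGCcatggattccgag
In Dnaic2 the core lies on both strands, close to the start. In Drc1 the match begins 11 bases before the start, and in Dlec1 it begins at the first base after the RefSeq start, which lies downstream of the GENCODE gene start printed for Dlec1 further on. Dnah5, Cfap221 and Cfap61, also at 0 in gKO, had no match to the arm in their windows, while Cfap20, Cfap74 and Rsph3b, with counts in every library, had a match.

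The libraries held 14603884 to 17652976 counts, so 1 CPM (a level relative to library size, scaled by TMM) stands for 14.1 to 17.5 counts. The labelled cell type was checked on its markers: P2ry12 lay between 3749 and 6209 CPM and the 15 markers together between 49665 and 59502 CPM in the 6 libraries. gKO replicate 3 stood apart, at 91.5 on the first principal component (39.0% of the variance) against -37.7 to -3.50 for the others, and longer transcripts had lower deviations in it (Spearman rho = -0.50 across genes, which are not independent replicates, against -0.04 to 0.30 in the others). Low counts were rarer in all gKO libraries: 222, 278 and 428 rows of the table had more than 0 and fewer than 5 counts in gKO replicates 1, 2 and 3, against 708, 1078 and 793 in the gWT replicates. The part of these library differences in the results on the members was not tested.

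Every knockout library had counts for fewer motile cilia genes than any wild-type library. A count above 0 was found for 28, 23 and 28 of the 48 members in gKO replicates 1, 2 and 3, and for 41, 37 and 40 members in the gWT replicates. The groups did not overlap, with means of 26.3 ± 2.89 and 39.3 ± 2.08 members (SD, n = 3 each). Over all rows, detection lay at 56.7% to 57.7% in gKO and at 61.5% to 62.6% in gWT, and for the members it lay at 47.9% to 58.3% and at 77.1% to 85.4%. All rows are not matched to the members for count level, and detection per library was not computed for matched rows. Brought to the size of the smallest library by calculation, 27.8, 23.0 and 28.0 members were expected above 0 in gKO and 41.0, 36.9 and 39.4 in gWT.

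**Figure D1:**
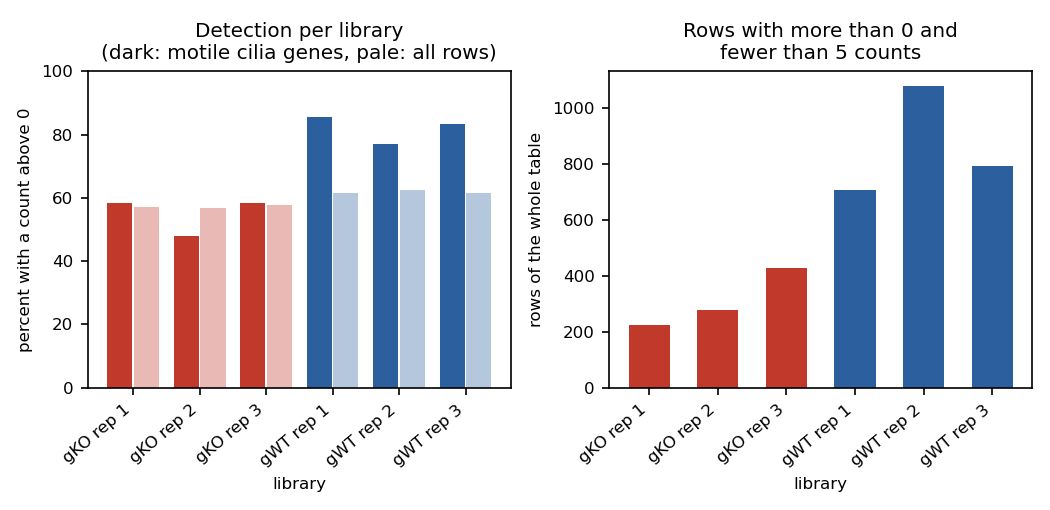
Left, percent of the 48 motile cilia genes (dark bars) and of all rows of the table (pale bars) with a count above 0 in each of the 6 libraries, gKO in red and gWT in blue; right, the number of rows with more than 0 and fewer than 5 counts in each library. The members' bars lie at 47.9% to 58.3% in gKO and at 77.1% to 85.4% in gWT, and low counts are fewer in every gKO library.

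Of the 48 members, 19 had counts in every library and 3 (Rsph14, Rsph6a and Tekt3) had none in any. All gKO libraries were at 0 for 11 members that had counts in at least 1 gWT library, and the reverse held for 0 members. Among these 11, Drc1, Dlec1 and Dnah5 had counts in all 3 gWT libraries. Over the table, the same pattern was found in 198 of the 16524 rows with any count, or 1.20%, and its mirror image in 8 rows. The members are low, which makes zeros common, so rows with similar totals are the closer background. Among rows with 10 to 100 counts over the 6 libraries, 5 of 20 members (25.0%) and 367 of 2699 rows (13.6%) were at 0 in all gKO libraries, and 0 members and 142 rows (5.30%) were at 0 in all gWT libraries. The 6 members with 1 to 9 counts in total were all at 0 in gKO, as were 871 of 1172 such rows (74.3%).

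**Figure D2:**
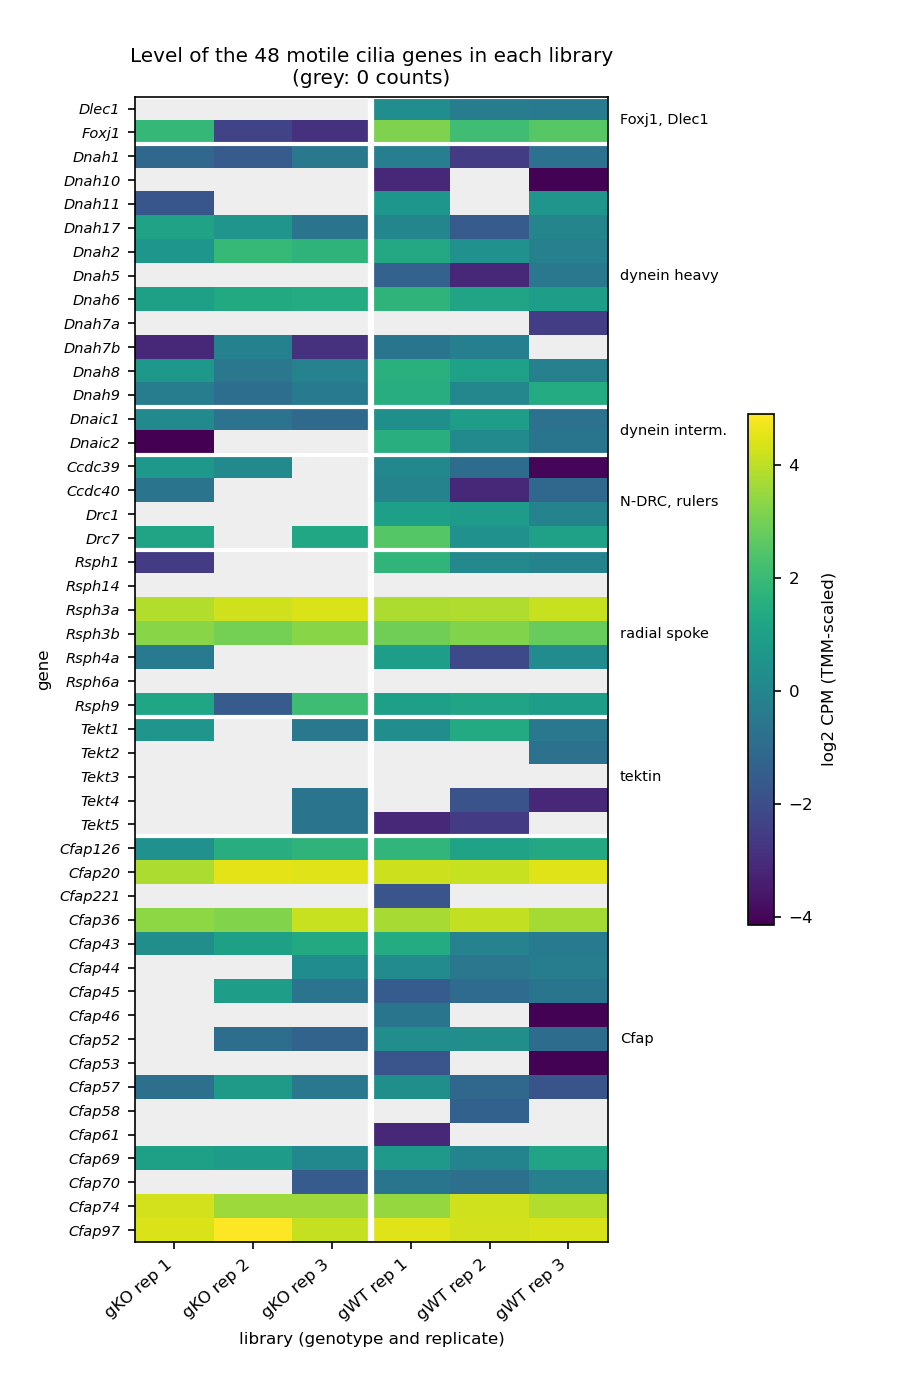
Level of each of the 48 genes (rows, grouped by role) in the 3 gKO and 3 gWT libraries (columns), as log2 CPM scaled by TMM; grey cells had 0 counts. Grey cells are most frequent in gKO replicate 2, where 23 genes had counts, while Cfap20, Cfap36, Cfap74, Cfap97, Rsph3a and Rsph3b are bright in all 6 libraries.

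By edgeR, 0 of the 29 members that passed the low-count filter were called, the lowest adjusted p being 0.144, where 0.627% of all 13403 genes tested were called. An unadjusted p under 0.05 was found for 4 of them, all lower in gKO (Drc1, Dnaic2, Dlec1 and Rsph1), against 5.74% of all genes in that direction. DESeq2 called these 4 lower and 0 members higher, of 37 members with an adjusted p, where 1.57% of its 14947 genes were called lower. The authors' deposited table of genes lower in gKO likewise lists these 4 members among its 201 genes, and their list of higher genes holds 0 members. Every gKO library lay below every gWT library in 6 tested members, the 4 just named and Foxj1 and Dnah9, and 0 members lay wholly above. Over all genes tested, 11.3% lay wholly below and 10% wholly above. Drc1, Dnaic2, Dlec1 and Rsph1 had at most 3 counts in any gKO library and passed the filter only through their gWT libraries. Members admitted that way had to differ, so the tested members are not a fair sample of the 48. Their median log2 fold change was -0.11, beside 0.01 over all genes tested. Without a filter, the 45 members with any count had a median of -0.98, beside -0.03 over all genes, and 32 of the members were negative. This background was not matched for count level, and scarce rows leaned towards zeros in gKO over the whole table. Of the 2699 rows with 10 to 100 counts in total, 367 were at 0 in all gKO libraries and 142 in all gWT libraries. The part of this lean in the members' unfiltered median was not tested.

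FOXJ1 is the master transcription factor of motile ciliogenesis. Its gene, Foxj1 (chromosome 11, 116330704 to 116335399, GRCm38, as for all gene positions here) had 65, 3 and 2 counts in gKO replicates 1, 2 and 3, against 151, 76 and 100 in the gWT replicates. Replicate 1 of gKO stood close to the lowest gWT library, and the other gKO libraries were almost without it. Its mean level was 1.36 ± 2.05 CPM in gKO against 6.37 ± 2.32 in gWT (SD, n = 3 each), a log2 fold change of -2.19 (SE 1.02, edgeR adjusted p = 0.493), which did not pass the test, although the groups did not overlap. The fold change was -5.13 (edgeR adjusted p = 0.0757) without gKO replicate 1 and ranged from -2.42 to -1.68 when another library was left out, and the edgeR adjusted p over the alternatives ran from 0.0757 to 0.996. In bulk RNA, fewer cells that express a gene and less RNA in each such cell cannot be told apart.

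Drc1, a core subunit of the nexin-dynein regulatory complex needed for the alignment of ciliary beating, had 0 counts in every gKO library against 33, 32 and 16 counts in the gWT replicates (chromosome 5, 30281388 to 30366695). Setting 3 counts over the gKO group as the floor, its level in gKO was at least 24.2-fold lower. This bound is for counting error in gKO only and takes the gWT counts as exact. The edgeR adjusted p was 0.145, and 0.0319 without gKO replicate 3, when 3.82% of 13814 genes were called lower; over the alternatives it ran from 0.0319 to 0.752. DESeq2 gave an adjusted p of 0.00107, and the authors' deposited table gives 0.00100. Another subunit gene, Drc7, was high in some libraries of both groups, with 39, 0 and 34 counts in gKO against 97, 24 and 35 in gWT. The rulers that set the axonemal repeat, Ccdc39 and Ccdc40, did not separate the groups. Ccdc39 had 28, 16.8 and 0 counts in gKO against 18.1, 9.15 and 1.09 in gWT, and shares 1256 exonic bases with Ttc14 on the opposite strand. As no strand setting is given, reads of these bases could belong to either gene. Ccdc40 had 11, 0 and 0 counts in gKO against 16, 2 and 8 in gWT and was not tested.

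Dnaic2, an intermediate chain of the outer dynein arm, had 1, 0 and 0 counts in gKO against 51, 20 and 11 in gWT (chromosome 11, 114727408 to 114757889). The groups lay far apart, but the gWT libraries themselves differed, with replicate 1 the highest. The ratio of gWT to gKO was 73.5 (95% exact interval 12.8 to 2938, for counting error alone), with an edgeR adjusted p of 0.161 and a DESeq2 adjusted p of 0.0105. Its partner chain Dnaic1 overlapped between the groups: it had 20, 9 and 7 counts in gKO against 22, 33 and 10 in gWT.

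The dynein heavy chains, the motors of the arms, were low per length. Their longest transcripts run from 12245 to 16685 bases, and the 11 Dnah genes lay between 0.012 and 0.539 TPM (a level corrected for transcript length as well as library size) in the mean of gWT. Dnah9, a heavy chain of the outer arm, had 14, 8 and 11 counts in gKO against 48, 18 and 46 in gWT. Its groups did not overlap, with 0.709 ± 0.140 and 2.184 ± 1.003 CPM (SD, n = 3 each). Its log2 fold change was -1.61 (SE 0.73), and edgeR gave an adjusted p of 0.481. It shares 495 exonic bases with Gm12296 on the opposite strand. Dnah5, also of the outer arm, had 0 counts in gKO against 7, 2 and 12 in gWT and did not pass the filter. With a floor of 3 counts over gKO and the gWT counts taken as exact, it was at least 6.27-fold lower in gKO. DESeq2 gave an adjusted p of 0.348, and edgeR without a filter gave 0.499. Dnah11, a further outer-arm chain, had 5.29, 0 and 0 counts in gKO against 25.95, 0 and 25.82 in gWT, with gWT replicate 2 as low as gKO. Dnah11 shares 642 exonic bases with Cdca7l on the opposite strand. Its counts above 0 were not whole numbers, so some of its reads could belong to another gene.

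The remaining heavy chains showed no common direction. Dnah2 had 27, 55 and 48 counts in gKO against 43, 24 and 15 in gWT, and Dnah6 had 35, 37 and 38 against 57, 39 and 33. Dnah1 had 8, 5 and 10 against 14, 3 and 10, while Dnah10 and Dnah7a had 3 counts each in total, all in gWT. Dnah7b had 2, 13 and 2 counts in gKO against 11, 15 and 0 in gWT. Dnah7a and Dnah7b are near-identical copies that could share reads, although all their deposited counts were whole numbers. Dnah8 and Dnah17 are best known from sperm. Dnah8 had 28, 10 and 13 against 52, 36 and 15, and Dnah17 had 37, 22 and 9 against 17, 6 and 17, with overlapping groups in both. Of the 6 heavy chains tested, 4 were negative and 0 were called. Across the 29 tested members, fold change and transcript length had a Spearman rho of 0.16, over genes that share the same 6 libraries.

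**Figure D3:**
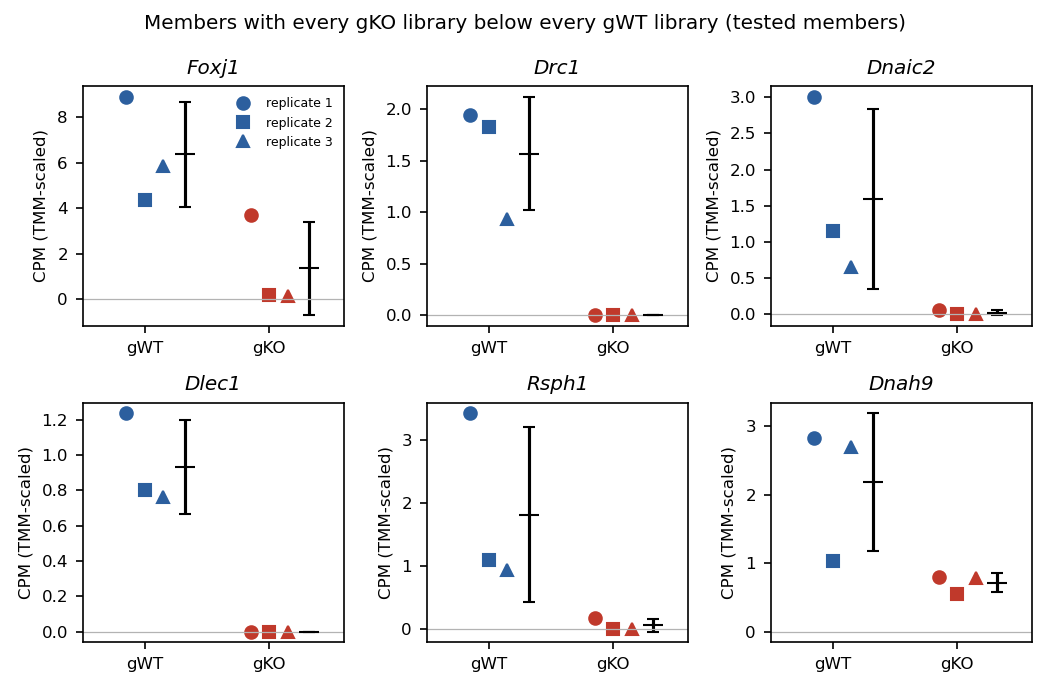
CPM scaled by TMM of the 6 tested members in which every gKO library (red) lay below every gWT library (blue); circles, squares and triangles are replicates 1, 2 and 3, and the black mark and bar give the mean and SD of 3 libraries. Drc1 and Dlec1 are at 0 in all gKO libraries, and Foxj1 in gKO replicate 1 is close to gWT replicate 2.

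The radial spoke members differed from each other. Rsph1, a spoke-head protein, had 3, 0 and 0 counts in gKO against 58, 19 and 16 in gWT (chromosome 17, 31255019 to 31277383), which is a ratio of gWT to gKO of 27.8 (95% exact interval 9.22 to 137, for counting error alone) with an edgeR adjusted p of 0.230 and a DESeq2 adjusted p of 0.0227. Rsph4a, another head protein, had 13, 0 and 0 counts in gKO against 32, 4 and 20 in gWT, so gKO replicate 1 lay inside the gWT range. Rsph9, the third head protein measured, had 41, 5 and 61 counts in gKO against 33, 39 and 33 in gWT, with overlapping groups.

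Rsph3a and Rsph3b, which encode the spoke-stalk protein RSPH3, were among the 5 highest tested members per length. Rsph3a lay at 20.6 ± 2.86 TPM in gKO and 18.6 ± 2.24 TPM in gWT, and Rsph3b at 10.4 ± 1.37 and 9.59 ± 1.18 TPM (SD, n = 3 each). Their log2 fold changes were 0.25 (SE 0.22) and 0.21 (SE 0.25), with overlapping groups. None of their deposited counts is a whole number, so reads could be shared between these near-identical copies, and the division between them is uncertain.

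Dlec1, whose protein is found in cilia and flagella, had 0 counts in all gKO libraries and 21, 14 and 13 in gWT (chromosome 9, 119102478 to 119148246). It was at least 14.3-fold lower in gKO, again for counting error in gKO only and with the gWT counts taken as exact. The edgeR adjusted p was 0.217, and DESeq2 gave 0.0215. Dlec1 shares 224 exonic bases with Acaa1b on the opposite strand. Here the gWT libraries were close to each other, at 0.761 to 1.24 CPM.

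Tektins, filament proteins inside the doublet microtubules, were scarce in both groups. Tekt1, the tektin with the most counts, had 26, 0 and 10 counts in gKO against 21, 46 and 12 in gWT. Tekt2 had 10 counts, all in gWT replicate 3. Tekt4 had 9 counts in gKO replicate 3 and 5 and 2 in gWT replicates 2 and 3, and Tekt5 had 9 in gKO replicate 3 and 2 and 3 in gWT replicates 1 and 2. The groups overlapped in Tekt1, the only tektin that passed the filter, and edgeR did not call it (adjusted p = 0.818).

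The Cfap genes, a mixed family of axonemal proteins, held most of the counts. Cfap20, an inner-junction protein of the doublet, lay at 11.96 ± 3.31 TPM in gKO and 12.5 ± 1.54 TPM in gWT (SD, n = 3 each). Cfap97 lay at 12.8 ± 5.04 and 12.2 ± 1.25 TPM, and Cfap36, a partner of the ciliary GTPase ARL3, at 18.2 ± 4.04 and 23.2 ± 2.999 TPM. Their log2 fold changes were 0.03 (SE 0.24), 0.13 (SE 0.23) and -0.22 (SE 0.30), all smaller than their SE. The order per length in gWT was Cfap36, Rsph3a, Cfap20, Cfap97 and Rsph3b, where the ranges of mean ± SD overlapped between Cfap36 and Rsph3a and between Cfap20 and Cfap97, but not between Rsph3a and Cfap20 or between Cfap97 and Rsph3b. The 6 members above 500 counts in total, these 5 and Cfap74, held 72.3% of all member counts. The summed level of all 48 members lay at 118 to 129 CPM in gKO and 130.6 to 150 CPM in gWT, so the groups did not overlap but nearly touched. Without those 6, the other 42 members summed to 23.3 to 28.9 CPM in gKO and 34.7 to 63.0 CPM in gWT, again with no overlap. These 42 include the 11 members with counts in gWT alone. How often sums of other genes separate in this way was not computed.

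Among the scarcer Cfap genes, several had lower means in gKO, and 0 were called. Cfap70, a regulator of the outer arm, had 0, 0 and 5 counts in gKO against 11, 10 and 15 in gWT. Cfap52, a protein inside the doublet, had 0, 8 and 6 against 21, 22 and 9, with gWT replicate 3 below gKO replicate 2 in CPM. Cfap44, part of the tether of an inner-arm dynein, had 0, 0 and 17 against 20, 12 and 14, and its partner Cfap43 had 22, 29 and 36 against 46, 16 and 13. Cfap45, also inside the doublet, went the other way in the mean, with 0, 27 and 9 counts in gKO against 6, 9 and 11 in gWT. Cfap57 had 10, 25 and 10 against 22, 8 and 5. Cfap126, the basal body positioning protein also called Flattop, had 24, 41 and 48 against 60, 37 and 43. Cfap221, Cfap46, Cfap53, Cfap58 and Cfap61 had 2 to 12 counts each, all in gWT. Of the 10 Cfap genes tested, 5 were negative, and the median log2 fold change was 0.01.

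**Figure D4:**
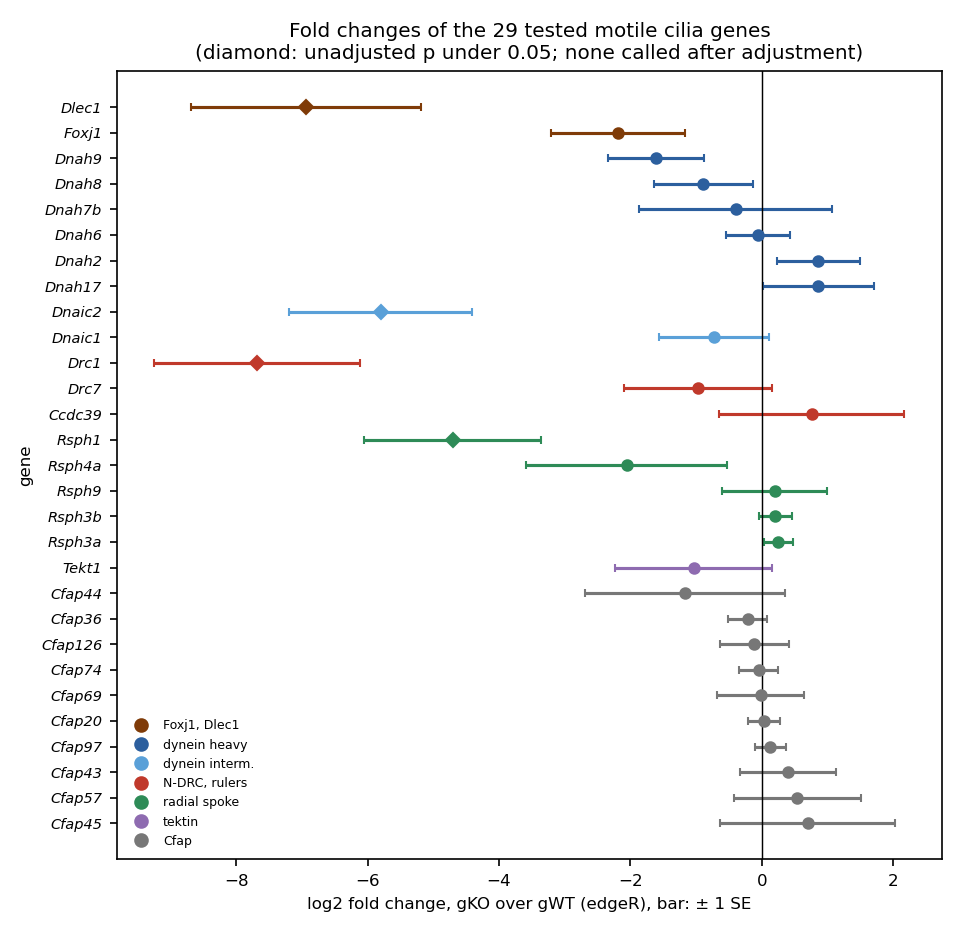
Log2 fold change of gKO over gWT by edgeR (points, with 1 SE as bars) for the 29 tested members, coloured by role; diamonds mark an unadjusted p under 0.05. Dlec1, Dnaic2, Drc1 and Rsph1 lie from -7.68 to -4.71, values that depend on a small count added to zeros, while the members with the most counts lie near 0 with short bars.

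Among other genes of cilia, edgeR called 0 members of each of the 4 lists that follow. The list of 13 regulators of multiciliation had 12 in the table and 9 tested, with a median log2 fold change of 0.01. Trp73, a p53 relative upstream of Foxj1, had 4, 0 and 1 counts in gKO against 28, 11 and 17 in gWT (log2 fold change -3.30, SE 1.24, edgeR adjusted p = 0.384). Rfx2 had 15, 18 and 19 counts against 45, 30 and 67, with no overlap (edgeR adjusted p = 0.504). Rfx3, which many cells express, went the other way, with 239, 203 and 192 against 163, 137 and 151 (log2 fold change 0.65, SE 0.21, edgeR adjusted p = 0.317). Mcidas, the coregulator that starts multiciliation, had 0 counts in all libraries.

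Of 31 docking and other axonemal genes, 17 were tested and 15 of these were negative, with a median of -0.64. Dnal1, a light chain of the outer arm, had 35, 68 and 37 counts in gKO against 127, 118 and 92 in gWT (log2 fold change -1.08, SE 0.41, edgeR adjusted p = 0.384). Dynein assembly factors had a median of -0.19 over 8 tested of 14. Intraflagellar transport and BBSome genes, which also serve the primary cilium of most cells, had a median of -0.19 over 28 tested of 29. An unadjusted p under 0.05 was found for 2, 1, 1 and 1 genes of the regulator, axonemal, assembly and transport lists, and DESeq2 called 0 in each. Without gKO replicate 3, edgeR called 1 axonemal gene lower and 0 genes of the other 3 lists. Trp73, Rfx2, Rfx3 and Dnal1 were picked out after their values were seen.

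RNA of other brain cells was present in all libraries, and part of it was lower in gKO. Choroid plexus markers were all detected. Ttr, the transthyretin gene of that epithelium, had 1176, 954 and 2840 CPM in gKO and 2791, 1747 and 1664 CPM in gWT, with gKO replicate 3 the highest. The other 11 choroid plexus markers summed to 79.5 to 117.6 CPM in gKO and 117.7 to 245 CPM in gWT, with gWT replicate 1 the highest. The groups did not overlap, but nearly touched. All 12 were negative (median log2 fold change -0.66); edgeR called 0, with an unadjusted p under 0.05 for 3, and DESeq2 called 1 lower. The same gWT replicate 1 had the highest CPM in 20 of the 45 members with any count, Foxj1, Drc1, Dnaic2, Dlec1, Rsph1 and Dnah9 among them. Each other library was highest in 4 to 6 members. The share of all rows highest in gWT replicate 1 was not computed, so whether 20 of 45 is unusual is not known.

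The 12 ependyma markers summed to 31.1 to 55.0 CPM in gKO and 49.6 to 60.5 CPM in gWT, mostly from Tm4sf1, which endothelium also expresses. Without it they summed to 11.5 to 20.6 and 12.5 to 17.0 CPM, with overlapping groups. The groups overlapped with Tm4sf1 included as well. Of the 6 tested ependyma markers, 5 had a negative log2 fold change, with Mia (-0.009) and Ccdc153 (-0.07) close to no change. Hdc, the other tested one, had 7.39, 5.62 and 7.92 CPM in gKO against 4.48, 4.17 and 3.63 in gWT. Its log2 fold change was 0.77 (SE 0.30, edgeR adjusted p = 0.408). Tmem212, an ependymal gene, had 0, 0 and 4 counts in gKO against 16, 8 and 0 in gWT, while Ccdc153 had 17, 11 and 3 against 18, 2 and 15. In sum, the astrocyte markers lay at 282 to 322 CPM in gKO and 397.5 to 447 CPM in gWT (median -0.70). Of these 12, edgeR called 0, with an unadjusted p under 0.05 for 6, and DESeq2 called 1 lower. The endothelial and mural markers lay at 363 to 431 and 680 to 861 CPM (median -0.91). Of these 10, edgeR called 2 lower, with an unadjusted p under 0.05 for 7, and DESeq2 called 4 lower. Without gKO replicate 3, edgeR called 7 of them lower. Neuron markers lay at 15 to 17.5 and 17.3 to 24.7 CPM (0 of 8 called, and 0 with an unadjusted p under 0.05), oligodendrocyte markers at 374 to 443 and 345 to 359 CPM (1 of 8 called higher by each tool and 1 called lower by DESeq2). The microglia and ependyma markers had medians of 0.16 and -0.33, with 0 called by either tool and 2 in each list with an unadjusted p under 0.05. Without gKO replicate 3, edgeR called 1 microglia marker higher and 2 lower, 1 ependyma marker lower, 2 astrocyte markers lower, 2 choroid plexus markers lower, and 1 oligodendrocyte marker in each direction. The part of these other cells in the members' differences was not tested.

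**Figure D5:**
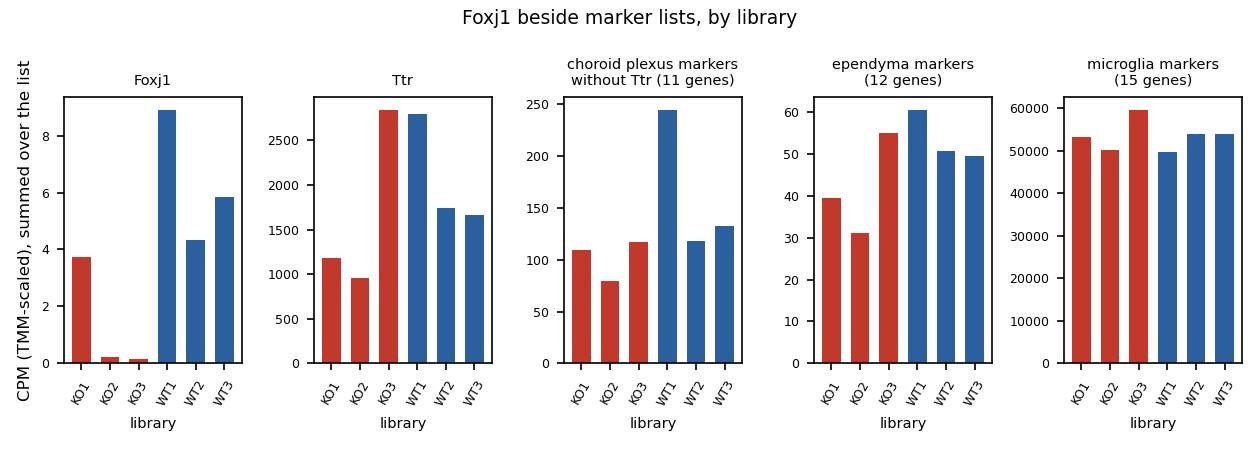
CPM scaled by TMM in the 6 libraries (bars, gKO red, gWT blue) for Foxj1, for Ttr, and summed for 11 choroid plexus markers without Ttr, 12 ependyma markers and 15 microglia markers. Foxj1 is lowest in gKO replicates 2 and 3, whereas Ttr is highest in gKO replicate 3 and the choroid plexus sum without Ttr is highest in gWT replicate 1.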

How the data were processed

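The authors deposited 1 table of expected counts, not normalized, by gene symbol for 6 libraries, and lists of genes lower or higher in gKO. Per the submitters' processing notes, the tools were STAR 2.7.9a, RSEM and DESeq2, with the builds GRCm38 and mm10, given without role or order; the strand setting is not given in the sources used here. Per the file headers, the authors' lists give for each gene the average normalized signal, the log2 fold change with its error, a test score, and the p-value before and after adjustment.

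Expected counts were rounded and fitted over the whole table with edgeR 4.0.16 (R 4.3.3): TMM scaling, default low-count filter, robust quasi-likelihood test on genotype, Benjamini-Hochberg adjustment over 13403 genes, called at an adjusted p under 0.05. SEs were derived from the size of the log2 fold change and the F statistic. Length-corrected levels (TPM) were computed here from the deposited counts and the longest GENCODE M21 transcript (GRCm38), with 23368 rows matched by symbol, 677 by synonym and 366 unmatched. Groups follow the sample titles. Counts of any pair of same-genotype libraries differed beyond sampling noise (chi-square per degree of freedom 6.49 or more), so all 6 were kept as separate libraries. Alternatives tried were scaling by RLE or the upper quartile, DESeq2 1.42.0, limma-voom (limma 3.58.1) with and without quality weights, other filters, the replicate number as a block, removal of each library's trend with transcript length, and each library left out. The test was checked on simulated counts. The members and gene lists were chosen with earlier results of these data known. Genes were named if tested with an unadjusted p under 0.05 or with groups that did not overlap, if among the 5 highest tested members in TPM, or if Foxj1, Dlec1, Ccdc39 or Ccdc40; other members appear by raw counts, counts of members or ranges, and in the plot of fold changes.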

Additional observations from a re-analysis of the deposited data

How the results depend on the processing

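No member was called higher in gKO under any of the 15 alternatives to edgeR with TMM and all 6 libraries. DESeq2 called 4 members lower, and 0 to 1 were called lower when a library was left out, the 1 being Drc1 without gKO replicate 3. The other alternatives called 0. Over the whole table, 53 genes were higher and 31 lower. The counts became 179 and 235 under DESeq2, 285 and 173 under quality-weighted voom, 253 and 107 with the length trend removed, and 47 lower without a filter; leaving out a library gave 0 to 551 higher and 0 to 528 lower, the highest counts without gKO replicate 3. The median log2 fold change of tested members was -0.98 by DESeq2 and without a filter, which also test the scarce members, -0.28 by voom, -0.43 with its quality weights, and -0.54 to -0.08 leaving out a library. The mean number detected in gWT was 34.7 with at least 5 counts required. The sign of Cfap20 changed with upper-quartile scaling (-0.01), voom (-0.02), quality weights (-0.11), the replicate block (-0.00026), and without gKO replicate 2 (-0.11), gKO replicate 3 (-0.08), gWT replicate 1 (-0.01) or gWT replicate 2 (-0.04), its highest value being 0.23 without gKO replicate 1; that of Cfap97 changed without gKO replicate 2 (-0.12), its highest being 0.29 without gKO replicate 3. The cause was not tested. Replicate numbers did not pair the libraries: same-numbered libraries had correlations of 0.053, -0.048 and 0.015 between their deviations, and not every library correlated best with its own number. With the replicate number as a block, 11 genes were higher, 7 lower and 0 members called. Depth limits what can be seen for the 6 members with 1 to 9 counts and the 20 with 10 to 100 counts over the 6 libraries.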

Other observations

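A pair of axonemal genes outside the naming rule of the members, picked out after their values were seen, also had every gKO library below every gWT library in CPM. Of the 17 tested docking and other axonemal genes, 5 lay wholly below in this way, beside 11.3% of all genes tested. Spag6, a central apparatus gene, had 0, 21 and 0 counts in gKO against 49, 39 and 25 in gWT, and edgeR gave an adjusted p of 0.650. Its groups nearly touched, with 1.44 CPM in gKO replicate 2 and 1.46 CPM in gWT replicate 3. Ak7, an adenylate kinase of cilia, had 10, 8 and 6 against 40, 22 and 13, and edgeR gave an adjusted p of 0.577. Another gene of the same list did not do so: Dynlrb2, a dynein light chain, had 17, 0 and 23 counts in gKO against 3, 6 and 3 in gWT.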
